A study of Mus musculus with 16 samples.

Results

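The genes described here are 10 components of the machinery by which cells sense bacterial lipopolysaccharide (LPS) and double-stranded RNA through Toll-like receptors. They were chosen by symbol as the rows *Tlr2*, *Tlr3*, *Tlr4*, *Cd14*, *Ly96*, *Lbp*, *Myd88*, *Ticam1*, *Tirap* and *Irak3* of the deposited table of log2 CPM (read counts scaled to library size, on a log2 scale), which holds 16707 genes. All 10 had a row, and all 10 passed the filter on low counts and were tested.

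RNA was sequenced from primary astrocytes, the star-shaped support cells of the brain, isolated from the brains of pups at postnatal day 6 by positive selection on magnetic beads against ACSA-2, an antigen of the astrocyte surface. The pups were WT C57BL/6J mice or *Nlrx1*-/- mice, which lack NLRX1, a mitochondrial member of the NOD-like receptor family that dampens innate immune signals. Cultures from 4 litters of each genotype received either vehicle (water) or 500 ng/mL LPS together with 10 ng/mL of the cytokine interferon gamma (IFNγ) for 24 h, which gave 16 libraries in 4 conditions. The vehicle and LPS + IFNγ cultures of a litter came from the same set of mice, so each litter gave 1 paired response. LPS and IFNγ were always given together, so the part of each agent in a response cannot be told apart.

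LPS is carried to cells by LPS-binding protein (*Lbp*), passed on by CD14, and recognised on the cell surface by TLR4 bound to its partner MD-2 (*Ly96*). TLR4 signals through a pair of adaptor routes: TIRAP recruits MyD88, which leads to NF-κB, and TRIF (*Ticam1*) leads to type I interferon. TLR2, which senses bacterial lipoproteins, uses MyD88, TLR3, which senses double-stranded RNA, uses TRIF, and IRAK-M (*Irak3*) is an inhibitor of the MyD88 arm.

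Salmon, the tool with which the authors assigned reads, placed between 27259420 and 43752903 read pairs in each library (median 35554625). *Nlrx1* itself lay between 4.08 and 4.44 log2 CPM in the 8 WT libraries and between 1.09 and 2.96 in the 8 *Nlrx1*-/- libraries, without overlap, although its difference in vehicle had an adjusted p of 0.0538. All 10 astrocyte markers on a fixed list were tested, and their summed level was between 4997 and 11327 CPM. Of 15 microglia and macrophage markers, 3 (*Sall1*, *P2ry12* and *Cd68*) passed the filter on low counts. Of the 15, 7 had under 10 reads in every library, among them *Aif1*, *Itgam*, *Cx3cr1* and *Tmem119* with at most 5. *Cd68* reached 74 reads, *P2ry12* 56, *Adgre1* 26 and *C1qb* 20. That list summed to between 67.3 and 141.9 CPM, nearly all of it *Sall1*, and its other 14 genes summed to between 1.26 and 4.60 CPM. Markers of the oligodendrocyte lineage were present as well, at a summed 1860 to 3753 CPM. In bulk RNA a lower share of cells of a type and less RNA per cell cannot be told apart.

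RefSeq start sites were on hand for *Tlr2*, *Tlr3*, *Myd88*, *Ticam1*, *Tirap* and *Irak3*, and the 250 bases before each start were searched on both strands for letters to which factors of the pathway are known to bind. These were the NF-κB consensus, GAAANNGAAA (an interferon-stimulated response element) and TTCNNNGAA (the STAT site through which IFNγ acts). *Tlr4*, *Cd14*, *Ly96* and *Lbp* were not analysed here. The sequences below, from RefSeq and placed on GRCm39, are shown because they hold the matches found, which stand in capitals, and belong to the 3 genes that rose most in WT. All 3 lie on the minus strand and are written 5′ to 3′ on that strand. The first is the stretch of the *Tlr2* window outside the annotated exons of *Tlr2*, and the others are 30 bases around matches that GENCODE M39 places in an exon of the same gene.
Tlr2 (chr3:83749075-83749165): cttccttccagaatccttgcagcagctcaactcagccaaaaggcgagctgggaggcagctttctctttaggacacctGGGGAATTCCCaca
Tlr3 (chr8:45863609-45863638): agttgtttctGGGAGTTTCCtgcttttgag
Myd88 (chr9:119169108-119169137): gcggagcTTCTCGGAAAGCGAAAgaaggag

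In *Tlr2* the capitals are 2 overlapping matches to the NF-κB consensus, which begin 173 and 172 bases before the start. *Tlr3* had 1 NF-κB match, at 211 to 202 bases before the start. In *Myd88* the capitals join a TTCNNNGAA match, 46 to 38 bases before the start, with an overlapping GAAANNGAAA match that ends 31 bases before it. Of 32851 promoter windows of the same length, 3.9% held the NF-κB consensus, 2.98% held GAAANNGAAA and 7.02% held TTCNNNGAA. The windows of *Ticam1*, *Tirap* (2 starts) and *Irak3* (2 starts) held none of these letters. A match describes the letters and not binding, which was not measured.

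The 10 genes differed widely in level before stimulation. Per transcript length (TPM, reads scaled to transcript length and to library size), *Tlr3* and *Ticam1* were the highest in WT vehicle cultures, at 12.3 ± 1.82 and 12.2 ± 1.08 TPM (mean ± SD, n = 4 litters), and their litters overlapped. *Tirap* followed at 7.70 ± 0.917 TPM and overlapped with *Myd88* at 6.89 ± 0.702 TPM. Next came *Cd14* at 5.54 ± 0.133 TPM and *Ly96* at 5.50 ± 1.24 TPM, which did not differ beyond their spread.

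*Tlr4* and *Tlr2*, the surface receptors for LPS and lipoproteins, were low in vehicle, at 1.76 ± 0.378 and 1.23 ± 0.567 TPM in WT, and their litters overlapped. *Lbp* at 0.699 ± 0.105 TPM and *Irak3* at 0.282 ± 0.0120 TPM were the lowest, and the litters of these 2 genes did not overlap with each other. In *Nlrx1*-/- vehicle cultures the order was the same from *Tlr3* (11.3 ± 0.691 TPM) down to *Tlr2* (0.907 ± 0.360 TPM). The last places were exchanged there, with *Irak3* at 0.404 ± 0.152 TPM and *Lbp* at 0.263 ± 0.101 TPM, but their litters overlapped.

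After LPS + IFNγ the order changed. In WT, *Tlr2* was the most abundant member at 67.2 ± 25.9 TPM, followed by *Tlr3* at 49.5 ± 6.89 TPM and *Myd88* at 34.8 ± 6.49 TPM, neighbours whose litters overlapped. *Ticam1* (16.6 ± 3.40 TPM) lay below *Myd88* in every litter, whereas in vehicle it had lain above. *Tlr4* reached 4.77 ± 0.645 TPM and overlapped with *Cd14* at 5.22 ± 0.600 TPM. The TPM of *Tlr4* lacks a transcript that could not be paired with its symbol, and the reads behind it made up 84.1% to 90.7% of the deposited *Tlr4* CPM in these 4 libraries, so its level is understated and its place next to *Cd14* is uncertain. In stimulated *Nlrx1*-/- cultures *Tlr3* (63.1 ± 17.1 TPM), *Tlr2* (61.1 ± 8.58 TPM) and *Myd88* (40.7 ± 9.94 TPM) held the top places. *Cd14* stood at 12.2 ± 6.14 TPM there, next to *Ticam1* at 12.2 ± 2.08 TPM, and its litters ranged from 5.71 to 18.7 TPM.

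**Figure D1:**
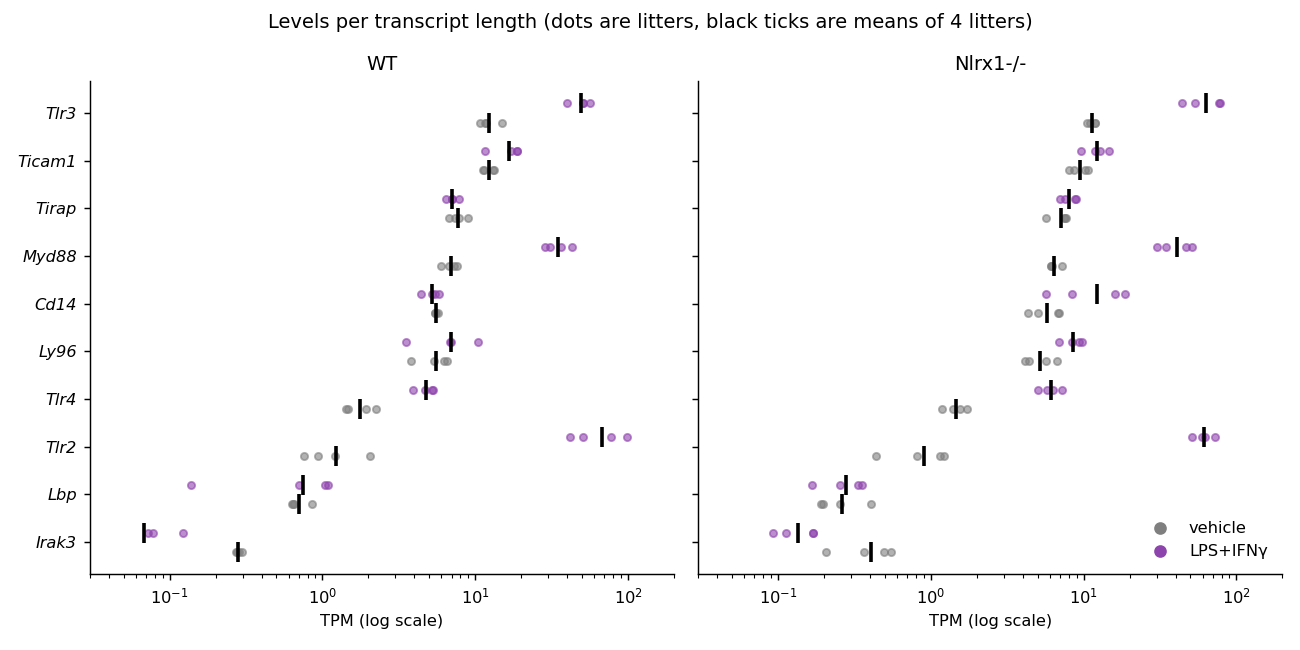
Level of each gene per transcript length, in TPM on a log axis, in WT (left) and *Nlrx1*-/- cultures (right), with genes ordered by their mean in WT vehicle. Dots are litters in vehicle (grey) or LPS + IFNγ (purple), and black ticks are means of 4 litters; the stimulated WT litter in which *Irak3* had 0 reads cannot be drawn on a log axis. The mean of *Tlr2* moved from 1.23 to 67.2 TPM in WT, past the mean of every other gene shown. In stimulated WT litter 1 *Tlr3* (50.3 TPM) stayed above *Tlr2* (41.9 TPM).

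In WT astrocytes LPS + IFNγ raised the Toll-like receptors and a pair of their adaptors. *Tlr2* rose 61.7-fold, *Myd88* 5.81-fold, *Tlr3* 4.66-fold, *Tlr4* 3.13-fold and *Ticam1* 1.55-fold, and the inhibitor *Irak3* fell 3.82-fold, on few reads. *Cd14*, *Ly96*, *Lbp* and *Tirap* did not pass the test (edgeR, adjusted p under 0.05). Thus 5 of the 10 genes were called higher and 1 lower, 6 in all, against a background of 23.7% called higher, 20.2% called lower and 43.9% in either direction among the 16066 genes tested. The median log2 fold change of the 10 genes was 0.56, and that of all genes was -0.02.

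In *Nlrx1*-/- astrocytes 7 of the 10 genes were called higher and 0 lower, with 25.3% of all genes called higher, 24.2% lower and 49.4% in either direction. *Tlr2* rose 75.2-fold, *Myd88* 6.98-fold, *Tlr3* 6.09-fold, *Tlr4* 4.63-fold, *Cd14* 2.18-fold, *Ticam1* 1.45-fold and *Tirap* 1.28-fold. *Ly96*, *Lbp* and *Irak3* did not pass the test. The median log2 fold change was 1.01 for the 10 genes and -0.03 for all genes. Among them, *Tlr2*, *Tlr3*, *Tlr4*, *Myd88* and *Ticam1* were called higher in both genotypes.

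Some cell type markers were also called in the responses to LPS + IFNγ. Of all genes, 23.7% were called higher and 20.2% lower in WT, and 25.3% and 24.2% in *Nlrx1*-/-. Of the 10 astrocyte markers, 3 were called higher and 4 lower in WT, and 2 higher and 5 lower in *Nlrx1*-/-. Of the 8 markers of the oligodendrocyte lineage, 5 were called lower in WT and 6 in *Nlrx1*-/-, and 0 were called higher. Of the 5 neuronal markers, 1 was called higher and 2 lower in WT, and 2 higher and 3 lower in *Nlrx1*-/-. *Tubb3* rose by 2.68 ± 0.16 in WT and 2.93 ± 0.17 in *Nlrx1*-/- (log2, edgeR), whereas *Rbfox3* and *Dcx* were called lower in both. The median log2 fold change of this list was -0.25 in WT and -0.42 in *Nlrx1*-/-. The 3 tested markers of the microglia list went different ways. *P2ry12*, a microglial receptor, had only 2 to 56 reads per library. It was called higher in *Nlrx1*-/- (2.26 ± 0.71, adjusted p = 0.0218) and stood at 1.78 ± 0.73 in WT (adjusted p = 0.0700, edgeR). The *P2ry12* response did not pass the test for a difference between genotypes (0.49 ± 1.03, adjusted p = 0.864). *Sall1* was called lower in WT (-0.48 ± 0.06) and in *Nlrx1*-/- (-0.36 ± 0.06). *Cd68* was called in neither (0.37 ± 0.38 in WT and 0.17 ± 0.37 in *Nlrx1*-/-). The part of these markers in the responses of the 10 genes was not tested.

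*Tlr2* (chromosome 3, 83743576 to 83749074, minus strand; all gene positions are GRCm39, GENCODE M39) stood at 0.0043, 0.34, 0.67 and 1.42 log2 CPM in WT vehicle litters 1 to 4. After LPS + IFNγ these litters reached 5.91, 6.89, 6.25 and 7.18. In *Nlrx1*-/- litters 1 to 4 the levels went from 0.63, -0.62, 0.19 and 0.76 to 6.24, 6.82, 6.43 and 6.57. Every stimulated library lay above every vehicle library by a wide gap, and the genotypes overlapped within each treatment. The edgeR log2 fold change was 5.95 ± 0.24 (SE) in WT (adjusted p = 1.43e-08) and 6.23 ± 0.24 in *Nlrx1*-/- (adjusted p = 1.15e-08). Vehicle libraries held only 22 to 98 *Tlr2* reads, so the size of the fold rests on a low vehicle level. Most *Tlr2* reads after stimulation went to the curated transcript of 2874 bases, which held 94.1% of the gene's TPM in WT and 93.9% in *Nlrx1*-/-.

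*Tlr3* (chromosome 8, 45848702 to 45864117, minus strand), the endosomal receptor for double-stranded RNA, had WT vehicle levels of 4.27, 4.44, 4.38 and 4.77 log2 CPM in litters 1 to 4. Stimulated WT litters stood at 6.68, 6.78, 6.42 and 6.88. The *Nlrx1*-/- litters went from 4.29, 4.52, 4.36 and 4.50 to 6.80, 7.41, 6.51 and 7.41. Litters 2 and 4 of *Nlrx1*-/- were the highest of all stimulated libraries, and litter 3 lay within the WT range. The log2 fold change was 2.22 ± 0.12 in WT (adjusted p = 1.64e-07) and 2.61 ± 0.12 in *Nlrx1*-/- (adjusted p = 4.78e-08, edgeR). Exons of *Tlr3* overlap the gene *Gm45542* on the other strand, and these unstranded reads cannot be divided between them.

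Salmon divided the *Tlr3* reads among many similar transcripts, and the shares varied between litters. A predicted transcript of 4272 bases held 37.5% of the *Tlr3* TPM in stimulated WT litters (27.1% to 45.7%) and 57.7% in stimulated *Nlrx1*-/- litters (34.6% to 77.7%). In vehicle it held 26.2% in WT, with litters from 0% to 39.3%, and 0.468% in *Nlrx1*-/-, with litters from 0% to 1.87%. The curated transcript of 4407 bases held 41.6% in *Nlrx1*-/- vehicle and 13.7% after stimulation. These shares are estimates for transcripts that have much sequence in common, and no test was run on them.

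*Tlr4* (chromosome 4, 66745783 to 66849936, plus strand), the LPS receptor, had 2.35, 2.77, 2.64 and 3.11 log2 CPM in WT vehicle litters 1 to 4 and 4.32, 4.47, 4.10 and 4.43 after stimulation. In *Nlrx1*-/- it went from 2.53, 2.29, 2.78 and 2.03 to 4.52, 5.05, 4.35 and 4.80. Stimulated and vehicle libraries did not overlap in either genotype. The fitted log2 fold change was 1.65 ± 0.17 in WT (adjusted p = 2.93e-05) and 2.21 ± 0.17 in *Nlrx1*-/- (adjusted p = 3.20e-06, edgeR). Summed transcripts covered between 69.2% and 102.8% of the deposited *Tlr4* CPM, and exons of *Gm69151* overlap on the other strand. With limma on the deposited values *Tlr4* was called in both genotypes too.

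**Figure D2:**
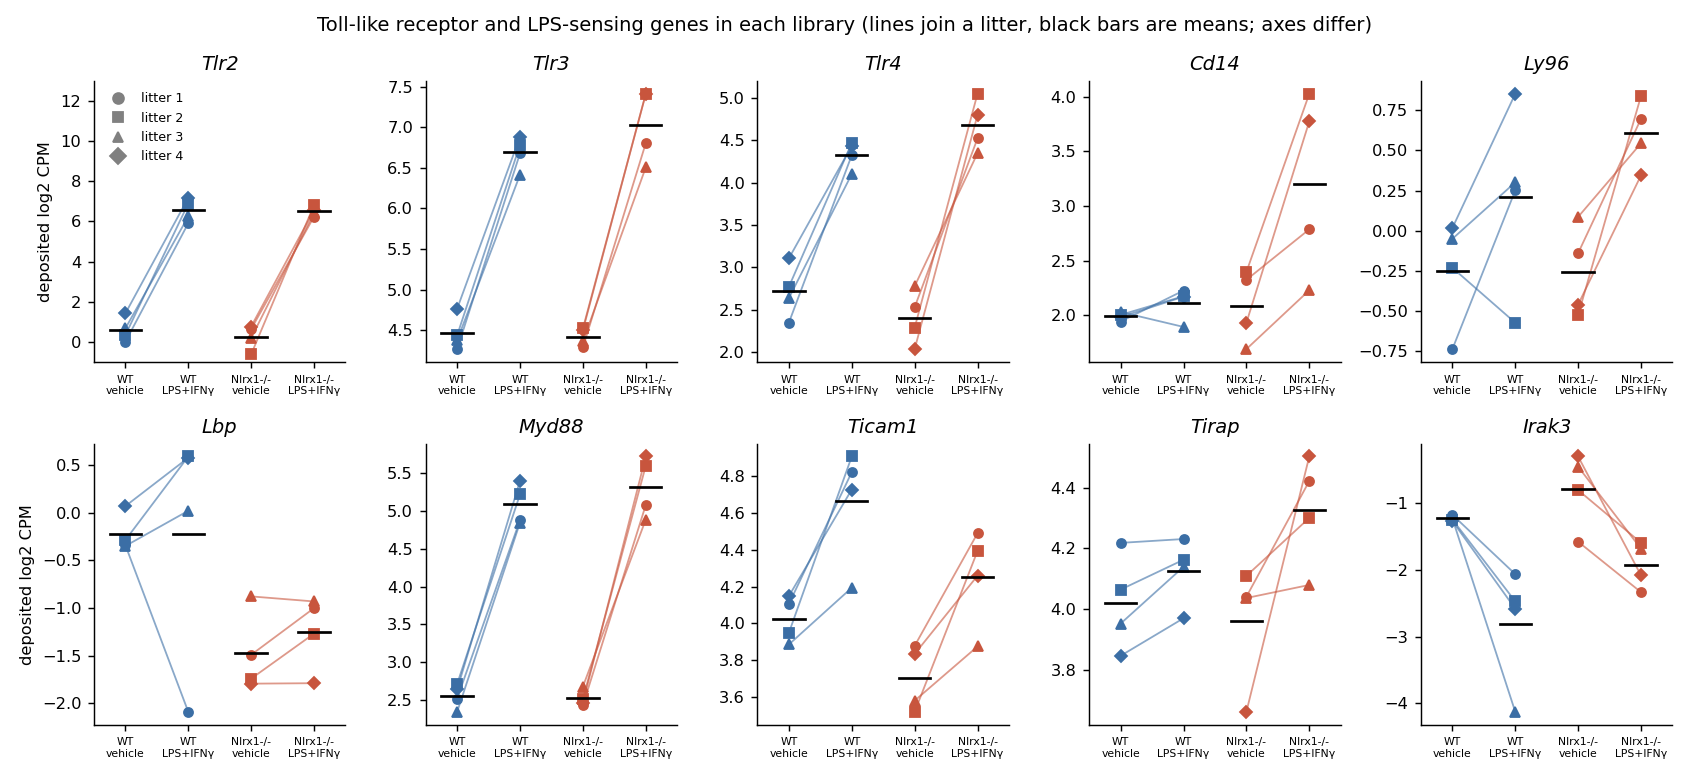
Deposited log2 CPM of each gene in every library, in vehicle and in LPS + IFNγ, for WT (blue) and *Nlrx1*-/- (red). Marker shapes are litters, lines join the 2 cultures of a litter, black bars are means of 4 litters, and the vertical axes differ. The lines of *Tlr2*, *Tlr3*, *Tlr4* and *Myd88* rise in all 8 litters, those of *Irak3* fall in all 8, and those of *Cd14* are nearly flat in WT.

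*Cd14* (chromosome 18), the co-receptor that hands LPS to TLR4, had the tightest vehicle levels of the set in WT, at 1.94, 2.00, 2.03 and 1.98 log2 CPM in litters 1 to 4. After stimulation WT litters stood at 2.23, 2.18, 1.89 and 2.17. In *Nlrx1*-/- the levels went from 2.32, 2.40, 1.69 and 1.93 to 2.79, 4.03, 2.23 and 3.77. Stimulated *Nlrx1*-/- litters 2 and 4 were far above the rest, and litter 3 lay just above the highest WT library. The log2 fold change was 0.12 ± 0.23 in WT (adjusted p = 0.716) and 1.13 ± 0.23 in *Nlrx1*-/- (adjusted p = 0.0023, edgeR). Between 104 and 467 reads lay behind each value.

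*Ly96* (chromosome 1, 16758275 to 16779961, plus strand) had only 17 to 66 reads per library. Its WT levels went from -0.74, -0.23, -0.05 and 0.02 to 0.25, -0.57, 0.30 and 0.85 log2 CPM in litters 1 to 4, with litter 2 falling. Its *Nlrx1*-/- levels went from -0.14, -0.52, 0.09 and -0.46 to 0.70, 0.84, 0.54 and 0.34, and here vehicle and stimulated libraries did not overlap. In edgeR the log2 change was 0.48 ± 0.35 in WT (adjusted p = 0.287) and 0.89 ± 0.34 in *Nlrx1*-/- (adjusted p = 0.0502, edgeR). The *Nlrx1*-/- value passed the threshold without litter terms (adjusted p = 0.0392), with DESeq2 (0.0400), with limma on the deposited log2 CPM (0.0266) and without WT litter 2 (0.0448).

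*Lbp* (chromosome 2, 158148409 to 158174800, plus strand), which encodes a secreted carrier of LPS, rested on 5 to 54 reads per library. WT vehicle litters stood at -0.34, -0.29, -0.35 and 0.07 log2 CPM, and stimulated WT litters at -2.09, 0.59, 0.02 and 0.58. *Nlrx1*-/- litters went from -1.49, -1.74, -0.88 and -1.79 to -1.002, -1.27, -0.93 and -1.79. Stimulated WT litter 1 was the lowest of all 16 libraries, while the 3 other stimulated WT litters were above all *Nlrx1*-/- libraries. The response was 0.08 ± 0.51 in WT (adjusted p = 0.913) and 0.25 ± 0.52 in *Nlrx1*-/- (adjusted p = 0.722, edgeR), and leaving out WT litter 1 gave 0.61 in WT.

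Of the adaptors, *Myd88* (chromosome 9, 119165000 to 119170486, minus strand) moved most. WT litters 1 to 4 went from 2.52, 2.71, 2.34 and 2.64 to 4.88, 5.22, 4.85 and 5.40 log2 CPM. *Nlrx1*-/- litters went from 2.43, 2.51, 2.68 and 2.46 to 5.08, 5.60, 4.89 and 5.72. Vehicle and stimulated libraries were well apart, and the genotypes overlapped in both treatments. The log2 fold change was 2.54 ± 0.15 in WT (adjusted p = 4.46e-07) and 2.80 ± 0.15 in *Nlrx1*-/- (adjusted p = 2.04e-07, edgeR). An exon of *Acaa1a* overlaps *Myd88* on the other strand.

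*Ticam1* (chromosome 17, 56576319 to 56583786, minus strand) rose modestly. WT litters went from 4.11, 3.95, 3.89 and 4.15 to 4.82, 4.91, 4.19 and 4.73 log2 CPM, and *Nlrx1*-/- litters from 3.88, 3.52, 3.58 and 3.83 to 4.49, 4.39, 3.87 and 4.26. All 8 litters rose, and litter 3 was the lowest stimulated library in each genotype. The fitted log2 fold change was 0.63 ± 0.12 in WT (adjusted p = 0.0014) and 0.54 ± 0.12 in *Nlrx1*-/- (adjusted p = 0.0033, edgeR).

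*Tirap* (chromosome 9, 35095542 to 35111654, minus strand), the bridging adaptor of MyD88, was the steadiest of the 3. Its WT litters went from 4.22, 4.06, 3.95 and 3.85 to 4.23, 4.16, 4.14 and 3.97 log2 CPM, and its *Nlrx1*-/- litters from 4.04, 4.11, 4.04 and 3.66 to 4.42, 4.30, 4.08 and 4.50. Vehicle and stimulated libraries overlapped in both genotypes, and the low vehicle value of *Nlrx1*-/- litter 4 gave the largest rise. The log2 fold change was 0.09 ± 0.11 in WT (adjusted p = 0.534) and 0.35 ± 0.11 in *Nlrx1*-/- (adjusted p = 0.0262, edgeR). The call in *Nlrx1*-/- was lost without litter 1 (0.35, adjusted p = 0.0702) and without litter 4 (0.20, adjusted p = 0.117). Exons of *Srpra* and *Gm39318* overlap *Tirap* on the other strand.

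*Irak3* (chromosome 10, 119975568 to 120038035, minus strand) had 0 to 32 reads per library, so its values are imprecise. WT litters went from -1.17, -1.24, -1.22 and -1.26 to -2.06, -2.47, -4.13 and -2.58 log2 CPM, where the value of litter 3 stands for 0 reads. *Nlrx1*-/- litters went from -1.57, -0.80, -0.45 and -0.29 to -2.33, -1.59, -1.68 and -2.08. All 8 litters were lower after stimulation, and vehicle and stimulated libraries did not overlap in either genotype. In edgeR the log2 change was -1.93 ± 0.66 in WT (adjusted p = 0.0351) and -1.35 ± 0.59 in *Nlrx1*-/- (adjusted p = 0.0810, edgeR). Leaving out any WT litter ended the WT call, with adjusted p between 0.0559 and 0.0984, as did leaving out *Nlrx1*-/- litter 1 or 3 (0.0519 each). The *Nlrx1*-/- value passed the threshold without litter terms (adjusted p = 0.0453) and with limma on the deposited log2 CPM (0.0479). Exons of *Tmbim4*, *Gm34545* and *Gm47009* overlap *Irak3* on the other strand.

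Whether the response differed between genotypes was tested as an interaction, and 0 of the 10 genes were called by edgeR, as were 0 of 16066 genes (0%). DESeq2 called 0 of the 10 as well, and 296 of all 16066 genes. With limma on the deposited log2 CPM 0 of the 10 and 0 of all genes were called. At an unadjusted p under 0.05, 3 of the 10 were counted (*Cd14*, *Tlr3* and *Tlr4*, all with a larger fitted rise in *Nlrx1*-/-), against 15.4% of all genes. The difference of the log2 responses was 1.01 ± 0.33 for *Cd14* (adjusted p = 0.226), 0.56 ± 0.24 for *Tlr4* (adjusted p = 0.303) and 0.39 ± 0.16 for *Tlr3* (adjusted p = 0.293, edgeR). For the other 7 genes the difference lay between -0.09 for *Ticam1* and 0.58 ± 0.87 for *Irak3*.

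Litter responses were also compared without a model. *Cd14* responded by 0.28, 0.17, -0.14 and 0.19 log2 CPM in WT litters 1 to 4 and by 0.46, 1.63, 0.54 and 1.84 in *Nlrx1*-/- litters. The litters did not overlap, and the means differed by 0.99 (exact permutation test, two-sided, p = 0.0286, the smallest that 4 against 4 allows, with 10 genes compared). How many of all genes have litter responses that separate was not counted, so this separation has no background beside it. *Tlr4* responses were 1.98, 1.70, 1.46 and 1.33 in WT and 1.99, 2.76, 1.57 and 2.76 in *Nlrx1*-/-, which overlapped (exact p = 0.114). *Tlr3* responses were 2.41, 2.35, 2.04 and 2.12 in WT and 2.52, 2.89, 2.14 and 2.91 in *Nlrx1*-/- (exact p = 0.114). In all 3 genes *Nlrx1*-/- litters 2 and 4 gave the largest responses. The exact p of the other 7 genes was between 0.171 for *Tirap* and 0.914 for *Lbp*. Without *Nlrx1*-/- litter 3 the difference was 0.89 for *Tlr4*, 0.54 for *Tlr3* and 0.37 for *Tirap*, each with an exact p of 0.0286. Leaving out any WT litter took the exact p of *Cd14* to between 0.0857 and 0.114.

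**Figure D3:**
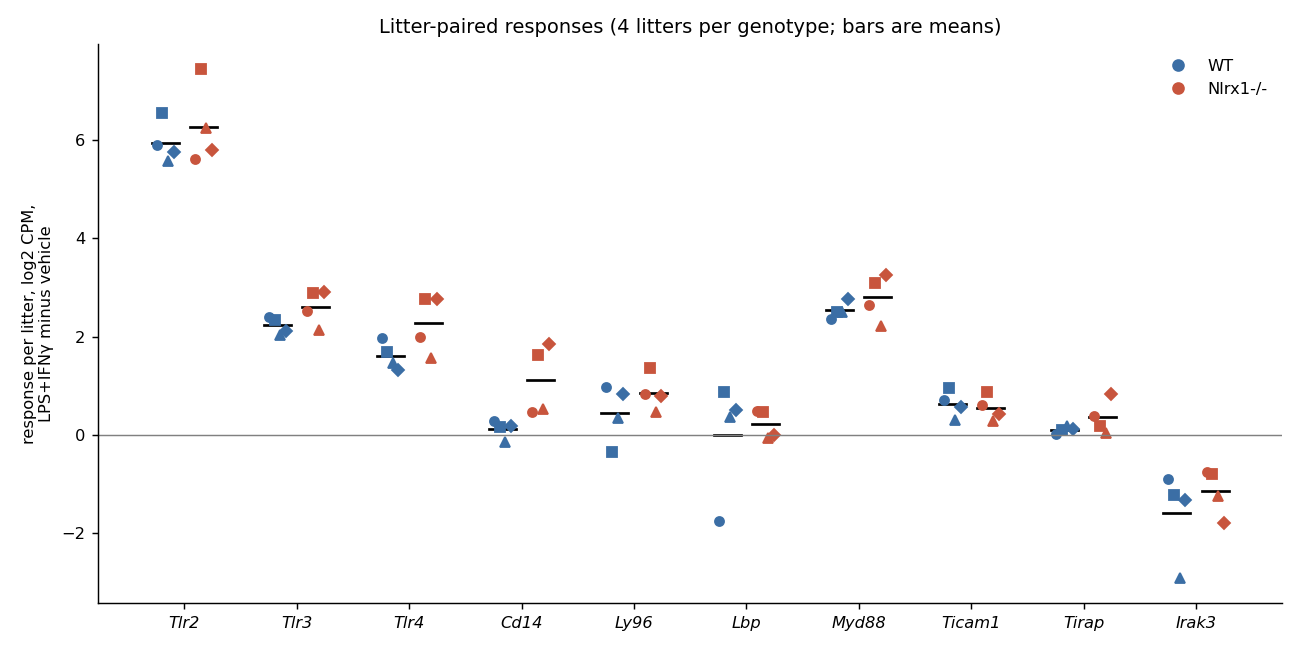
Response of each litter, as log2 CPM in LPS + IFNγ minus vehicle, for the 10 genes in WT (blue) and *Nlrx1*-/- (red), with the marker shapes of the litters as in the plot of levels and bars at the means. The *Cd14* litters of the genotypes are separate, with WT between -0.14 and 0.28 and *Nlrx1*-/- between 0.46 and 1.84, and those of the other 9 genes overlap. The share of all genes whose litter responses separate was not counted.

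Genotypes were also compared within each treatment. In vehicle 0 of the 10 genes were called by edgeR, and 0% of all genes were. Of the 10, *Lbp* alone had an unadjusted p under 0.05, against 19.6% of all genes, at a log2 fold change of -1.36 ± 0.50 (*Nlrx1*-/- against WT, adjusted p = 0.173). All 4 *Nlrx1*-/- vehicle litters were below all WT litters for *Lbp* (mean difference -1.25 log2 CPM, exact permutation test, two-sided, p = 0.0286). The vehicle litters of *Ticam1* were separate too, at 3.70 ± 0.18 log2 CPM in *Nlrx1*-/- and 4.02 ± 0.13 in WT (SD, n = 4, exact permutation p = 0.0286), and its edgeR difference was -0.33 ± 0.16 (adjusted p = 0.263). The other 8 genes lay between -0.41 for *Tlr2* and 0.58 for *Irak3*. DESeq2 called 0 of the 10 and 735 of all 16066 genes, and limma called 0 of the 10 and 1 of all genes. The share of all genes with separate vehicle litters, as in *Lbp* and *Ticam1*, was not counted.

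In LPS + IFNγ, *Cd14* was the member called, 2.37-fold higher in *Nlrx1*-/- (log2 1.25 ± 0.30, edgeR adjusted p = 0.0413), while 2.65% of all genes were called higher, 2.38% lower and 5.03% in either direction. Its stimulated libraries did not overlap between the genotypes on the deposited log2 CPM (means 3.20 and 2.12, exact permutation p = 0.0286). The share of all genes with such a separation was not counted. The gap was narrow, from the highest WT library at 2.226 to the lowest *Nlrx1*-/- library at 2.230 log2 CPM. In TPM the genotypes overlapped, with WT litters up to 5.80 and *Nlrx1*-/- litters down to 5.71. The edgeR call did not survive leaving out WT litter 2, 3 or 4 or *Nlrx1*-/- litter 2 or 4, with log2 values of 0.94 to 1.28 and adjusted p of 0.0999 to 0.150, nor a fit of the stimulated libraries alone (1.25, adjusted p = 0.0835). Calls over all genes, 808 in the main fit, fell to 1, 2, 1, 13 and 4 without these litters, in that order. The fit of the stimulated libraries alone called 0 genes. *Lbp* was lower by edgeR at -1.43 ± 0.50 (adjusted p = 0.0846) and *Ticam1* at -0.43 ± 0.16 (adjusted p = 0.0918), neither past the threshold. Without WT litter 1, *Lbp* was called lower (-1.78, adjusted p = 0.0319), and with DESeq2 as well (-1.44, adjusted p = 0.0432). Those fits called 767 of 16323 and 1209 of 16066 genes lower. *Tlr3* (0.37 ± 0.17, adjusted p = 0.175) was called higher without *Nlrx1*-/- litter 3 (0.51, adjusted p = 0.0307), in a fit that called 1499 of 16298 genes higher.

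Some cell type markers were called in the same comparison, in which 2.38% of all genes were called lower. The astrocyte markers *Gja1* (-1.33 ± 0.36), *Aldoc* (-0.62 ± 0.16) and *S100b* (-2.001 ± 0.51) and the oligodendrocyte progenitor marker *Pdgfra* (-0.83 ± 0.19) were called lower in stimulated *Nlrx1*-/- cultures (log2, edgeR), 3 of 10 and 1 of 8 on their lists. The summed astrocyte list had a range of 4997 to 6982 CPM there and 6083 to 8942 CPM in stimulated WT. The summed oligodendrocyte list had a range of 1860 to 2525 CPM and 2036 to 2758 CPM. The microglia list without *Sall1* summed to between 1.88 and 3.65 CPM in stimulated *Nlrx1*-/- and between 1.68 and 4.60 CPM in stimulated WT. The part of the astrocyte, oligodendrocyte and microglia markers in the *Cd14* difference was not tested.

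**Figure D4:**
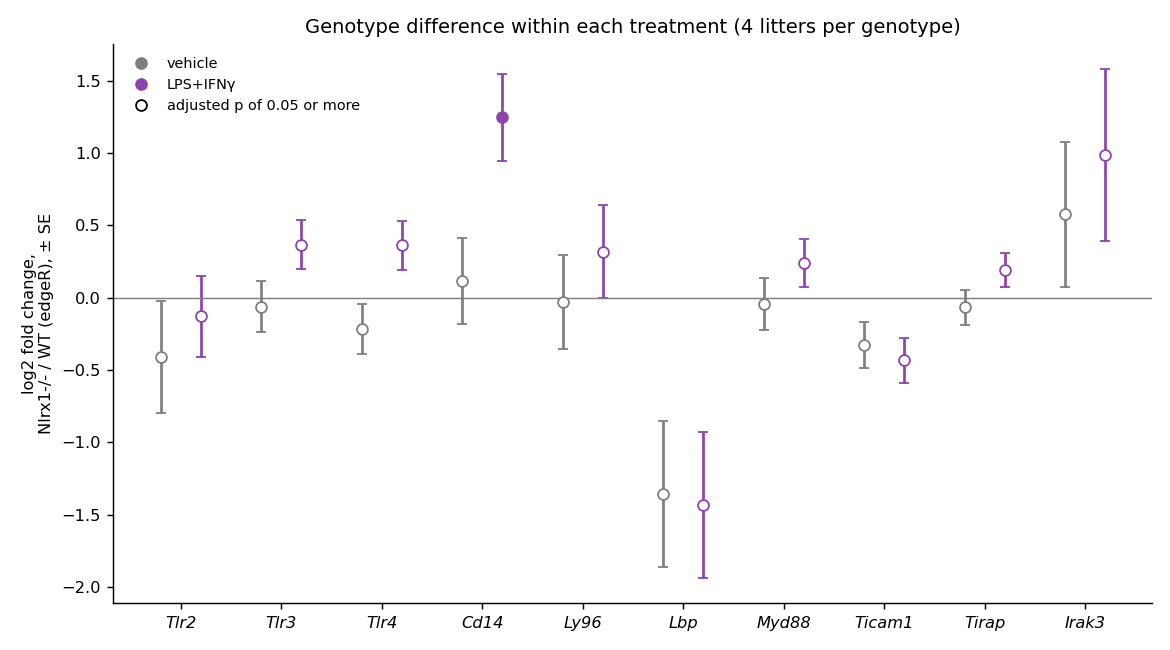
Log2 fold change of *Nlrx1*-/- against WT for each gene in vehicle (grey) and in LPS + IFNγ (purple), from edgeR with 4 litters per genotype; bars are standard errors, and filled points passed an adjusted p of 0.05. *Cd14* in LPS + IFNγ, at 1.25, is the only filled point, and *Lbp* lies at -1.36 and -1.43.

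The rest of the pathway was read from 3 fixed lists. Of 15 other Toll-like receptors and accessory proteins, 6 passed the filter on low counts, and 9 did not, among them *Tlr1*, *Tlr7*, *Tlr9* and *Tlr13*, while *Tlr8* and *Tlr11* had 0 reads in all 16 libraries. Of the 6 tested, 3 were called higher in both genotypes and 0 lower, beside 23.7% of all genes higher in WT and 25.3% in *Nlrx1*-/-. These 3 all serve the folding or traffic of the receptors. *Unc93b1*, which carries endosomal receptors such as TLR3, rose by 3.28 ± 0.10 in WT and 3.36 ± 0.10 in *Nlrx1*-/- on the log2 scale (edgeR, adjusted p = 2.56e-09 and 1.48e-09). *Hsp90b1*, the chaperone of most Toll-like receptors, rose by 0.87 ± 0.06 and 0.98 ± 0.06.

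Of 21 genes of signal transduction, all tested, 9 were called higher and 2 lower in WT and 11 higher and 3 lower in *Nlrx1*-/-, beside 23.7% of all genes higher and 20.2% lower in WT and 25.3% and 24.2% in *Nlrx1*-/-. The transcription factor *Irf7* rose most, by 5.59 ± 0.29 in WT and 5.60 ± 0.28 in *Nlrx1*-/- (log2, edgeR). *Irf5* was called higher in both genotypes too, but it had 0 reads in 2 libraries and at most 104, so no fold is given. In WT the fallers were *Tab2* (-0.26 ± 0.07) and *Traf6* (-0.19 ± 0.05), parts of the complex below MyD88. In *Nlrx1*-/- the largest falls were those of *Ticam2* (-0.92 ± 0.32), the adaptor that links TLR4 to TRIF, and *Irak4* (-0.61 ± 0.15), the kinase next to MyD88. The median log2 fold change of the list was -0.03 in WT and 0.18 in *Nlrx1*-/-.

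Of 18 inhibitors of the pathway, 16 were tested, and 12 were called higher in each genotype, with 4 lower in WT and 1 lower in *Nlrx1*-/-. Of all genes, 23.7% were higher and 20.2% lower in WT, and 25.3% and 24.2% in *Nlrx1*-/-. *Socs1*, a suppressor of cytokine signalling, rose by 6.22 ± 0.19 in WT and 6.27 ± 0.19 in *Nlrx1*-/- (log2, edgeR). *Bcl3*, a nuclear partner of NF-κB, and *Acod1*, which makes itaconate, were called higher in both genotypes but had 0 reads in 2 and 7 libraries, so no fold is given. *Peli3* (-0.87 ± 0.27) and the phosphatase *Dusp1* (-0.79 ± 0.22) fell in WT, and *Sarm1* (-0.25 ± 0.09) was the one called lower in *Nlrx1*-/-. The list's median was 1.29 in WT and 1.60 in *Nlrx1*-/-. In the interaction and in both genotype comparisons edgeR called 0 genes of all 3 lists.

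**Figure D5:**
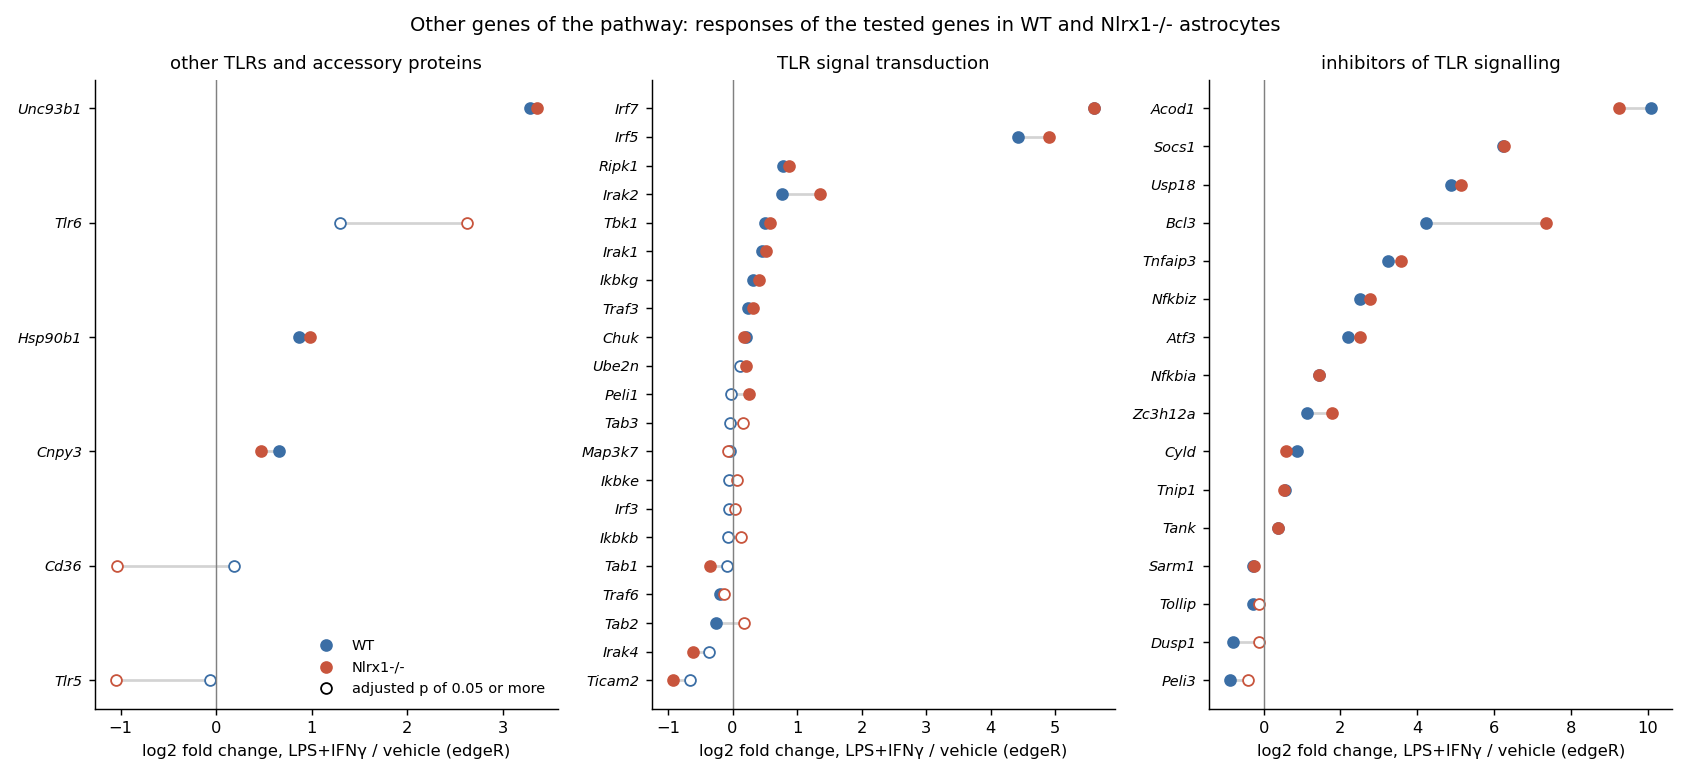
Log2 fold change in LPS + IFNγ against vehicle (edgeR) for the tested genes of the 3 pathway lists, 6, 21 and 16 genes, in WT (blue) and *Nlrx1*-/- (red). Filled points passed an adjusted p of 0.05 and grey lines join the 2 genotypes; most inhibitors lie to the right of 0, and most signal transduction genes lie near it.

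The genes whose log2 CPM followed each member most closely over the 16 libraries were sought among 11961 genes, as a description. The closest to *Tlr2* were *Trafd1* (Pearson r = 0.995) and *C1ra* (0.994), those to *Tlr3* were *Samd9l* (0.995) and *Irf9* (0.995), and those to *Myd88* were *Parp12* (0.997) and *Samd9l* (0.996). *Samd9l* thus came up for both *Tlr3* and *Myd88*. *Tlr4* was followed by *Crybg1* (0.991) and *Pdia4* (0.989). *Cd14* had other neighbours, *Ero1a* (0.964) and *Vldlr* (0.962). The weakly expressed or little-changed members had looser ones, from 0.815 for *Rarg* with *Ly96* to 0.912 for *Cmtm3* with *Ticam1*. The 16 libraries come from 8 litters, and 8 of them were stimulated, so the points share litters and treatments.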

How the data were processed

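The study sequenced poly-A RNA without strand information from 4 litters per genotype in vehicle and in LPS + IFNγ, and groups, litters and pairing were taken from the sample labels and the series' design. The authors quantified transcripts with Salmon 1.7.0 on GRCm39 and deposited, per library, the expected count (estimated, not normalized), the TPM and the effective length of 129698 transcripts. The authors deposited CPM, a normalized signal of length-scaled counts over TMM-adjusted library sizes (limma 3.58.1), and its log2 with a small prior, per gene.

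Expected counts were rounded after summing over the 106440 transcripts that could be paired with a symbol (35297 genes). edgeR 4.0.16 in R 4.3.3 was run with quasi-likelihood tests, offsets for transcript length, TMM factors, a filter (filterByExpr, minimum count 10) and Benjamini-Hochberg adjustment over 16066 genes at 0.05. Responses and the interaction used litters as blocks within genotype, as in the study's methods. The genotype comparisons used the 4 conditions without litter terms, since each litter has 1 genotype. Exact permutation tests ran over 8 litters on the deposited log2 CPM. Alternatives used DESeq2 1.42.0, limma, RLE factors, no offsets, no filter, a threshold of 0.01 and leaving out each litter. The fits were tested on simulated data. Tables were made with pandas 2.3.3 and numpy 2.4.6 under Python 3.11.15, and plots with matplotlib 3.10.9.

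Replicates are separate litters. The 2 libraries of a litter, centred by condition, correlated across genes at r = 0.0733 to 0.295 in WT and 0.147 to 0.355 in *Nlrx1*-/-, and the pairing itself comes from the design text. The precision of a value follows from its reads, given for the weakly expressed genes, and from the spread between litters. All 10 members, *Nlrx1*, at most 2 called genes per direction, list and response, and the 2 genes most alike in pattern were named by a fixed rule; marker genes and *Samd9l* as a shared neighbour were picked out after their values were seen. The members and lists were chosen with earlier results of these data known. The age of the pups and the vehicle follow the labels; the text of the study also gives a younger age and saline. Fold changes of genes with few reads depend on edgeR's prior count.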

Additional observations from a re-analysis of the deposited data

Results flagged for a closer look

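In 60 groups of 4 libraries (the levels of the 10 genes and their litter responses), 3 groups held a library far from the other 3 by Dixon's ratio, and chance alone marks about 1 group in 20. The lowest *Cd14* library in stimulated WT cultures, that of litter 3, stood at 1.89 log2 CPM. The highest *Lbp* library in WT vehicle, that of litter 4, stood at 0.0679 log2 CPM, on few reads. The lowest *Tirap* library in *Nlrx1*-/- vehicle, that of litter 4, stood at 3.66 log2 CPM, and the *Tirap* call in *Nlrx1*-/- was lost without that litter.

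The response of *Cd14* differed between the genotypes by 0.992 log2 CPM in the exact permutation test over litters (larger in *Nlrx1*-/-, p = 0.0286, with 10 genes compared), and the interaction in edgeR had an adjusted p of 0.226. Leaving out any WT litter gave differences of 0.905 to 1.04 and exact p of 0.0857 to 0.114, and leaving out any *Nlrx1*-/- litter gave differences of 0.751 to 1.21 and an exact p of 0.0286.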

How the results depend on the processing

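The number of members called higher in WT (5) and in *Nlrx1*-/- (7), and 0 calls in the interaction and in vehicle, came within 1.5 times of the stated counts under every alternative run. The number called lower in WT, 1 (*Irak3*), was 0 at a threshold of 0.01 and without the filter on low counts, and between 0 and 1 when a litter was left out. The number called lower in *Nlrx1*-/-, 0, became 1 (*Irak3*) with no replicate block and with limma on the deposited log2 CPM. In LPS + IFNγ the number higher in *Nlrx1*-/- than in WT, 1 (*Cd14*), was 0 at a threshold of 0.01 and in a fit of 1 treatment only, which was added after seeing the data, and ranged from 0 to 2 over left-out litters. The number lower there, 0, was 1 with DESeq2 (*Lbp*) and with the replicate block (*Ticam1*, -0.43, adjusted p = 0.0313), and 0 to 1 over left-out litters. That block adds only litter numbers, which do not pair the genotypes, and with it 1192 of 16066 genes were called lower.

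Values that were not called changed sign in 19 cases. With no replicate block the interaction of *Lbp* was -0.073. The others arose when a litter was left out. The WT response of *Lbp* then ranged from -0.22 to 0.61. The interaction ranged from -0.36 to 0.47 for *Lbp*, from -0.20 to 0.0091 for *Ticam1* and from -0.038 to 0.50 for *Tlr2*. The vehicle difference ranged from -0.11 to 0.027 for *Tirap*, from -0.12 to 0.0072 for *Myd88*, from -0.17 to 0.069 for *Ly96* and from -0.12 to 0.058 for *Tlr3*, and the stimulated difference of *Tlr2* from -0.31 to 0.12. The difference of the litter responses on the log2 CPM ranged from -0.063 to 0.55 for *Tlr2*, from -0.36 to 0.52 for *Lbp* and from -0.20 to 0.017 for *Ticam1*. The cause was not tested. Of the other values of single genes, 795 kept direction and side of the threshold, 22 dropped below it and 13 passed it.

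Over all genes, edgeR called 0 in the interaction (2469 at an unadjusted p under 0.05; DESeq2 296, limma 0) and 0 in vehicle (3152; DESeq2 735, limma 1), and 808 in LPS + IFNγ (DESeq2 2438, limma 1471). Over the alternatives these totals ran from 0 to 317, 0 to 1310 and 0 to 3333, so a genotype difference of the members that was not called in this design cannot be taken as absent. Depth limits *Irak3*, *Lbp* and *Ly96*, with at most 66 reads per library, and *Tlr2* in vehicle, with 22 to 98.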
